A study of Homo sapiens with 12 samples.

Results

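The genes described here are long noncoding RNA genes that carry small nucleolar RNAs (snoRNAs) in their introns, together with 4 nuclear or housekeeping long noncoding RNAs measured beside them. They were taken from the count table by symbol: every SNHG gene with a number, GAS5, ZFAS1, DANCR and EPB41L4A-AS1 as hosts, and MALAT1, NEAT1, TUG1 and NORAD. The rule found 32 of the 56609 symbols in the table, 28 hosts and 4 others, of which 27 (23 hosts and the 4 others) had enough counts to be tested. RNA came from A375, an established human melanoma cell line, sequenced after ribosomal RNA depletion with a strand-specific library kit. Wild-type cells and cells that had lost MAPKAPK2, which encodes the p38-activated kinase MK2, through CRISPR/Cas9 were exposed for 48 h to 500 nM JQ1 or to the solvent DMSO, giving 4 groups of 3 libraries. JQ1 is an inhibitor that displaces BET bromodomain proteins from acetylated chromatin, and the study asked how loss of MAPKAPK2 affects resistance to such inhibitors. Whether the knockout cells are 1 clone or a pool, and whether replicates came from separate cultures, is not given in the sources used here, so the p-values measure the spread between these libraries, which may be technical.

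A snoRNA host gene is transcribed and spliced like other genes, and its snoRNAs are cut out of the discarded introns and packed with core proteins into particles that guide chemical modification of ribosomal RNA. Box C/D snoRNAs guide methylation, H/ACA snoRNAs guide pseudouridylation, and small Cajal body RNAs (scaRNAs) are related guides that act on spliceosomal RNAs. Many spliced host transcripts have only short reading frames and are removed by nonsense-mediated decay, so the level of a host RNA reflects both its synthesis and its decay, while the snoRNA is stable. Among the others, NEAT1 is the scaffold of nuclear bodies called paraspeckles, MALAT1 is concentrated in nuclear speckles, TUG1 acts partly at chromatin, and NORAD is a largely cytoplasmic RNA that binds Pumilio proteins.

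The 12 libraries held 25316899 to 34594295 estimated counts. MAPKAPK2 itself stood at 11.1 to 15.7 counts per 1000000 counts (CPM) in the 6 knockout libraries and at 87.9 to 119.7 CPM in the 6 wild-type libraries. The melanoma markers SOX10 (389 to 687 CPM) and S100B (27.8 to 49.1 CPM) were present in all libraries, whereas the pigment genes PMEL (at most 1.45 CPM) and MLANA (at most 1.02 CPM) were near 0. The knockout JQ1 library of replicate 3 stood apart from its group. Its root mean square deviation from the group mean was 0.190 on the log2 scale over 11251 genes, against 0.0797 to 0.129 in the other 11 libraries. Values below are CPM scaled by TMM, an edgeR method that corrects library size for differences in composition. A gene was called changed at an adjusted p under 0.05 in edgeR's quasi-likelihood fit, with Benjamini-Hochberg adjustment over the 21698 genes tested. CPM depend on transcript length, so levels are compared between libraries and never between genes.

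Counts mapped to the 28 hosts made up 0.0954% to 0.0971% of a wild-type DMSO library and 0.0735% to 0.0773% of a wild-type JQ1 library. The corresponding shares were 0.103% to 0.105% in knockout DMSO and 0.0838% to 0.0885% in knockout JQ1, so treated and untreated libraries did not overlap in either genotype. These shares are of library totals, of which 5 symbols of RNA polymerase III transcripts (RN7SK, 7SK, RN7SL1, RN7SL2 and RMRP) together took 9.44% to 9.79% in wild-type DMSO and 10.6% to 11.7% in wild-type JQ1, and 10.6% to 11.7% and 11.1% to 14.6% in knockout; their part in the host shares was not tested. In an alternative chosen after seeing the data, the hosts' summed TMM-scaled CPM was 899 to 918 in wild-type DMSO and 767 to 782 in wild-type JQ1, and without GAS5 639 to 656 and 615 to 617. In knockout the sums were 1003 to 1021 in DMSO and 905 to 915 with JQ1. Without GAS5 the knockout ranges of 727 to 743 and 721 to 730.1 overlapped. Because bulk RNA was measured, fewer cells carrying a transcript and less of it per cell cannot be told apart. There were 5 hosts with too few counts to be tested. SNHG18 was at 0 in all 12 libraries, where a count of 0 allows up to 3 counts in a library. SNHG22 had 0 to 4 counts, SNHG26 0 to 9, SNHG27 0 to 1 and SNHG28 1 to 12.

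With JQ1 some hosts fell and others rose, and 3 of the 4 other RNAs rose. In wild-type cells 6 of the 23 tested hosts fell (GAS5, SNHG1, SNHG6, SNHG8, SNHG11 and SNHG20) and 1 rose (SNHG7), and NEAT1, MALAT1 and NORAD rose. That made 10 of 27 called genes, beside 33.1% of all tested genes called in the same comparison (16.9% higher and 16.2% lower). In knockout cells 5 hosts fell (GAS5, SNHG1, SNHG8, SNHG20 and EPB41L4A-AS1) and 4 rose (SNHG7, SNHG9, DANCR and ZFAS1), and NEAT1, MALAT1 and NORAD again rose, which made 12 of 27, beside 34.4% of all tested genes (16.7% higher and 17.8% lower). Calls among the 27 were thus about as common as among all genes in wild type and somewhat more common in knockout, a difference that was not tested. The median log2 fold change of the 23 hosts was -0.12 in wild type and -0.09 in knockout, beside -0.03 and 0.00 over all tested genes. The host median was -0.05 without wild-type JQ1 replicate 2, -0.06 without wild-type JQ1 replicate 3 and -0.07 without replicate 3 of the wild-type DMSO group. In knockout it was -0.16 without JQ1 replicate 3 and -0.06 without DMSO replicate 3. The split depended on scaling: with library totals in place of TMM, the median of all genes moved by -0.13 in wild type and by -0.12 in knockout. The hosts then counted 0 higher and 9 lower in wild type, and 2 higher and 9 lower in knockout. The rises of SNHG7 in wild type and of ZFAS1 and DANCR in knockout were among the calls lost. DESeq2-type size factors gave 3 higher and 6 lower in wild type, and DESeq2 gave 5 higher and 5 lower in knockout.

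**Figure D1:**
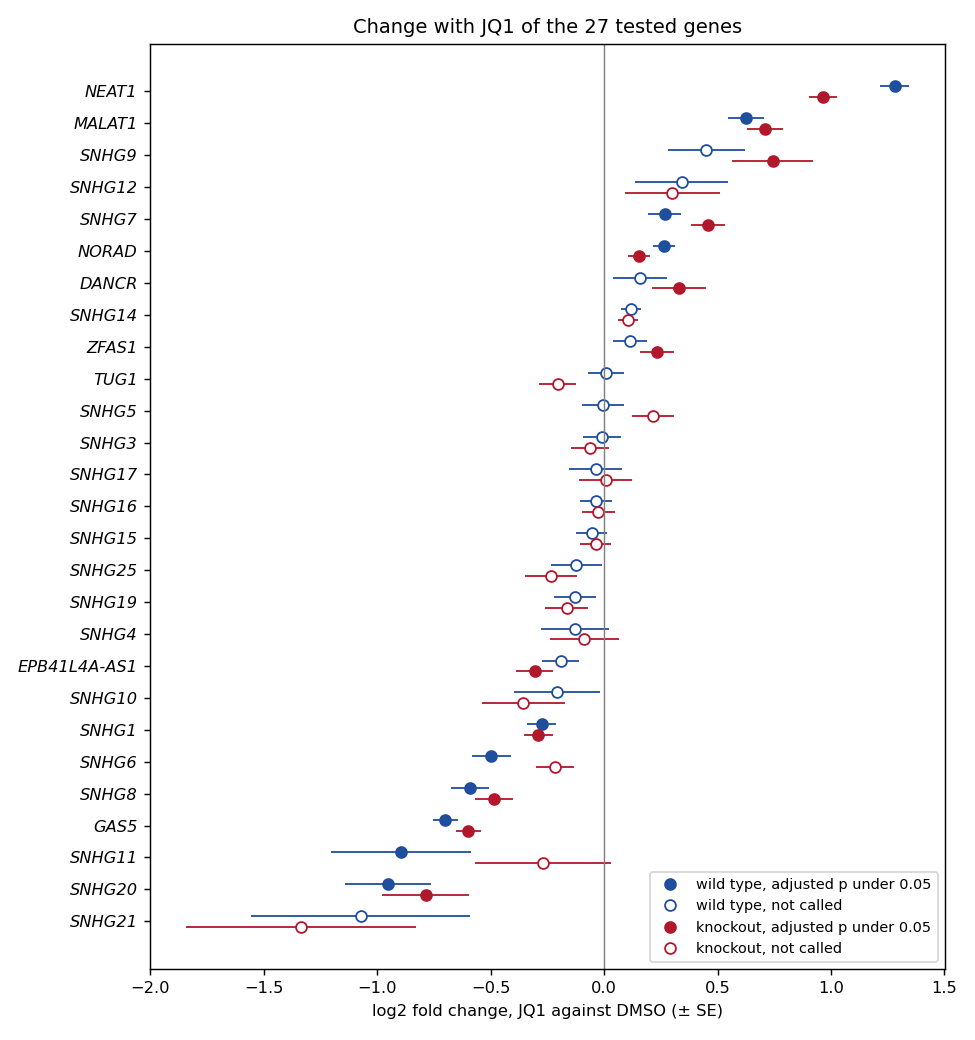
Log2 fold change with JQ1 for the 27 tested genes, ordered by the wild-type value, with bars for the standard error; blue is wild type, red is knockout, and filled points passed an adjusted p of 0.05. NEAT1 has the highest value in both genotypes, followed by MALAT1 in wild type and by SNHG9 and MALAT1 in knockout. GAS5, SNHG8 and SNHG20 stand near the bottom in both, while SNHG21 has the lowest values but wide errors and no call. The wild-type rise of SNHG7 turns to -0.13 with the authors' gene-specific factors.

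The 4 hosts that fell in both genotypes carry guides of different classes. GAS5 (chr1:173863900-173868882, minus strand of GRCh38, GENCODE v29, annotated as a processed transcript) hosts box C/D snoRNAs and is named for its accumulation in growth-arrested cells. GAS5 stood at 260.3, 260.0 and 262 CPM in the wild-type DMSO libraries and at 149.8, 166 and 166 CPM with JQ1. The knockout libraries had 277, 276 and 278 CPM in DMSO and 194, 179 and 176 CPM with JQ1. All 6 treated libraries lay below all 6 DMSO libraries. The log2 fold change was -0.70 ± 0.05 (SE; adjusted p = 2.5e-07) in wild type and -0.60 ± 0.05 (SE; adjusted p = 1e-06) in knockout, which left 61.6% and 66.0% of the DMSO level. GAS5 kept its call in both genotypes with each of the 12 libraries left out in turn. GAS5 overlaps the coding gene ZBTB37 on the opposite strand over 801 bases. ZBTB37 had -0.24 ± 0.08 (SE; adjusted p = 0.0304) in wild type and -0.28 ± 0.08 (SE; adjusted p = 0.014) in knockout. The part of this overlap in the GAS5 values was not tested.

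SNHG8 (chr4:118278709-118279823, plus strand) is a short intergenic RNA gene whose intron holds the H/ACA snoRNA SNORA24. SNHG8 measured 49.1, 52.2 and 51.4 CPM in wild-type DMSO and 33.1, 35.2 and 33.0 CPM in wild-type JQ1. In knockout cells it measured 48.7, 50.9 and 49.4 CPM in DMSO and 34.5, 31.0 and 40.8 CPM with JQ1. Treated and DMSO libraries did not overlap, and the highest treated library was the knockout replicate 3 noted above. The log2 fold changes were -0.59 ± 0.08 (SE; adjusted p = 6.61e-05) and -0.48 ± 0.08 (SE; adjusted p = 0.000348). SNHG20 (chr17:77086716-77099902, plus strand), which holds the scaRNA SCARNA16, had the largest fall among the called hosts in both genotypes. Its levels were 5.66, 6.62 and 5.72 CPM in wild-type DMSO and 3.36, 2.78 and 3.11 CPM in wild-type JQ1. They were 5.64, 5.53 and 5.62 CPM in knockout DMSO and 2.93, 2.19 and 4.50 CPM in knockout JQ1, where replicate 3 was again the highest of the treated libraries. The fall was 0.95 ± 0.19 on the log2 scale in wild type (adjusted p = 0.00124) and 0.79 ± 0.19 in knockout (adjusted p = 0.00509). SNHG20 shares 11154 bases on its strand with the coding gene SEC14L1, so reads of the pair could be split. SEC14L1 moved by 0.20 ± 0.06 (SE; adjusted p = 0.0181) in knockout, opposite in sign to SNHG20, and its wild-type value was 0.07 ± 0.06 (SE; adjusted p = 0.399).

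SNHG1 (chr11:62851988-62855914, minus strand) is a host of box C/D snoRNAs whose spliced product has little coding potential. Its levels were 35.9, 40.3 and 37.6 CPM in wild-type DMSO, 32.1, 30.2 and 31.7 CPM in wild-type JQ1, 42.6, 40.7 and 39.5 CPM in knockout DMSO and 33.2, 34.5 and 32.7 CPM in knockout JQ1. The groups did not overlap within a genotype, and the change was the smallest of the 4 genes, -0.27 ± 0.06 (SE; adjusted p = 0.0041) in wild type and -0.29 ± 0.06 (SE; adjusted p = 0.00265) in knockout. SNHG1, SNHG8 and SNHG20 kept their calls in both genotypes in each of the 12 fits that left out 1 library.

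**Figure D2:**
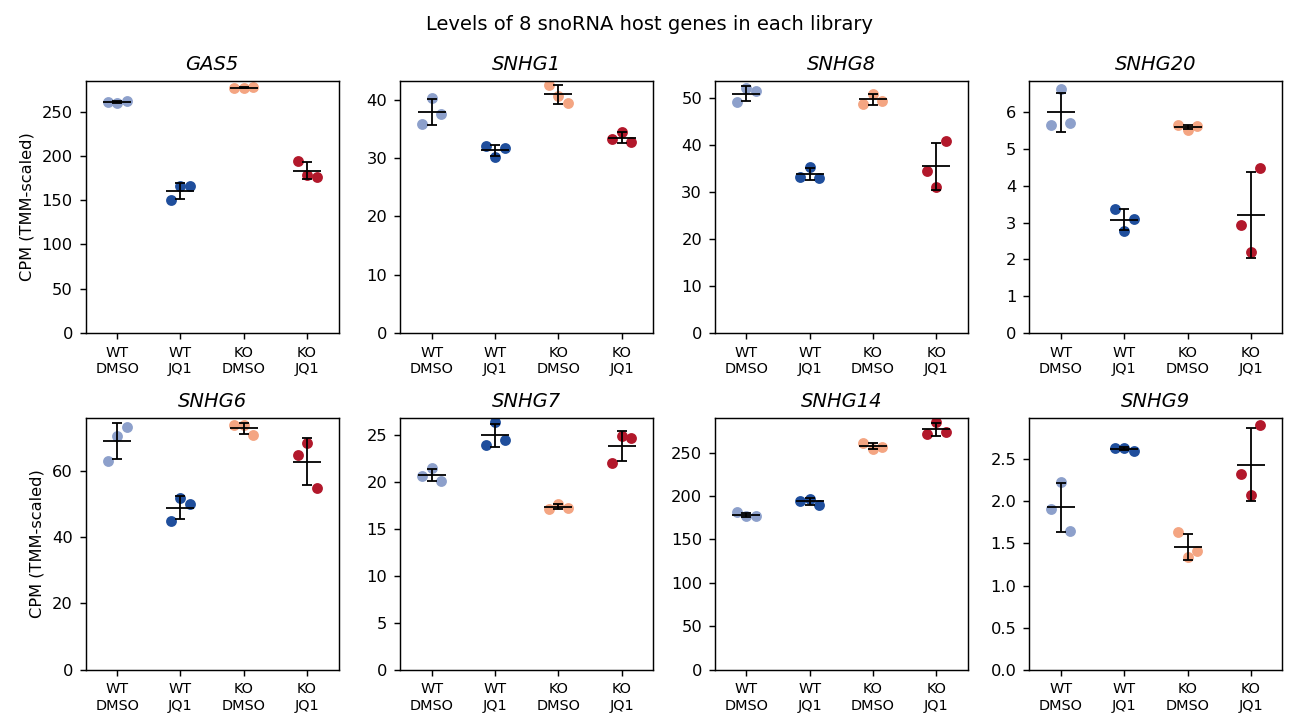
CPM of 8 hosts in each of the 12 libraries (WT, wild type; KO, knockout; points are libraries, bars the mean and standard deviation of 3). GAS5, SNHG1, SNHG8, SNHG20 and SNHG6 sit lower with JQ1 without overlap in both genotypes, though SNHG6 was not called in knockout, and SNHG14 sits higher in all 6 knockout libraries than in any wild-type library.

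SNHG8 and SNHG20 are the called hosts in which an embedded guide RNA was also called lower with JQ1, so the RefSeq windows around their starts are shown, from 250 bases before to 50 after, on GRCh38.p14. Capitals mark matches to GGGCGG, the core of a GC box, on either strand (read as CCGCCC on the other strand). The window of SNHG8 is chr4:118278512-118278811 on the plus strand and that of SNHG20 is chr17:77088393-77088692 on the plus strand. The SNHG20 window lies wholly inside the gene as GENCODE v29 places it, from base 77086716, so the RefSeq start used here is not the gene's first base there.
SNHG8: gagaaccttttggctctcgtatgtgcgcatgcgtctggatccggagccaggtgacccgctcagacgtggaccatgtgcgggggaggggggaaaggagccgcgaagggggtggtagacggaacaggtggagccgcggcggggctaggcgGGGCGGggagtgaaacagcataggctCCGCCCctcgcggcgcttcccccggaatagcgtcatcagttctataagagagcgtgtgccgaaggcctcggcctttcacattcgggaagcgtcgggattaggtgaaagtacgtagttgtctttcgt
SNHG20: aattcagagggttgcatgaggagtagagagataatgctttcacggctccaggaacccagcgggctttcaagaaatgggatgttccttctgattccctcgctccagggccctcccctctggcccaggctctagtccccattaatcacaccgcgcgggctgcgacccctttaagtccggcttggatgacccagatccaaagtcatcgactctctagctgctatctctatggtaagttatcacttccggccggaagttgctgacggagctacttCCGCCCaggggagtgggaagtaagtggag
SNHG8 holds 2 matches and SNHG20 holds 1. Of the 32 genes, 27 had a window in the table, and 20 of these 27 held GGGCGG on either strand, beside 45.0% of all 35116 promoter windows. The E-box CACGTG, a palindrome bound by MYC family proteins, occurred in 3 (NORAD, SNHG7 and TUG1), beside 7.26% of all windows. CCAAT, searched on both strands, occurred in 7, beside 34.6% of all windows, and the GAS5 window held 3 such matches. The GAS5 window, chr1:173868996-173869295, lies wholly outside the gene as GENCODE v29 places it, up to base 173868882. None of the windows of GAS5, SNHG1, SNHG8 and SNHG20 held CACGTG, and these matches are descriptions of letters in a window only.

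A further 3 hosts were called lower in 1 genotype, SNHG6 and SNHG11 in wild type and EPB41L4A-AS1 in knockout. SNHG6, the host of SNORD87, measured 63.1, 70.6 and 73.4 CPM in wild-type DMSO and 44.9, 51.7 and 50.1 CPM in wild-type JQ1. The knockout libraries had 73.8, 73.9 and 70.8 CPM in DMSO and 64.9, 68.6 and 54.8 CPM with JQ1. Treated libraries lay below the DMSO libraries in both genotypes. The wild-type change was -0.50 ± 0.09 (SE; adjusted p = 0.000401) and held in all 12 fits with a library left out. The knockout value was -0.22 ± 0.08 (SE; adjusted p = 0.0632), past the threshold without knockout JQ1 replicate 2. It also passed with library totals, no filter, the authors' factors and limma, but not with DESeq2, DESeq2-type size factors, a replicate block or only the groups compared. The difference between the genotypes' responses was 0.28 ± 0.12 (SE; adjusted p = 0.544). SNHG11, which holds SNORA60, fell by 0.89 ± 0.31 in wild type (adjusted p = 0.0365) at levels of only 1.92 to 2.50 CPM in DMSO and 0.445 to 1.75 CPM with JQ1. That call was lost without any 1 of the 3 wild-type DMSO libraries or wild-type JQ1 replicates 1 or 2 (adjusted p up to 0.134). EPB41L4A-AS1, the host of SNORA13, fell by 0.31 ± 0.08 in knockout (adjusted p = 0.00921), a call lost without knockout DMSO replicate 1 (adjusted p = 0.0524). Its wild-type value was -0.19 ± 0.08 (SE; adjusted p = 0.0884), past the threshold with library totals.

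SNHG7 rose in both genotypes, and SNHG9, ZFAS1 and DANCR rose in knockout. SNHG7, host of the H/ACA snoRNA SNORA17B, stood at 20.7, 21.5 and 20.1 CPM in wild-type DMSO and 24.0, 26.4 and 24.6 CPM in wild-type JQ1. In knockout cells SNHG7 stood at 17.2, 17.7 and 17.3 CPM in DMSO and 22.0, 24.9 and 24.7 CPM with JQ1. No treated library overlapped its DMSO controls, and the log2 fold changes were 0.27 ± 0.07 (SE; adjusted p = 0.0101) and 0.46 ± 0.07 (SE; adjusted p = 0.000196). The wild-type call was lost without wild-type JQ1 replicate 2 (adjusted p = 0.0536). Its sign turned with the gene-specific factors of the authors' normalized table, to -0.13 (adjusted p = 0.536). SNHG7 overlaps the coding gene FAM69B on the opposite strand over 2685 bases, and FAM69B fell by 0.82 ± 0.11 in wild type and by 1.27 ± 0.11 in knockout. Whether the counting used the strand is not given in the sources used here, and the part of the overlap in these values was not tested.

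SNHG9, the host of SNORA78, was measured at 1.91, 2.23 and 1.65 CPM in wild-type DMSO, 2.64, 2.63 and 2.60 CPM in wild-type JQ1, 1.64, 1.34 and 1.40 CPM in knockout DMSO and 2.32, 2.07 and 2.91 CPM in knockout JQ1. Its log2 fold change was 0.74 ± 0.18 (SE; adjusted p = 0.00456) in knockout and 0.45 ± 0.17 (SE; adjusted p = 0.0539) in wild type, where leaving out knockout JQ1 replicate 2 or 3, or replicate 2 of the wild-type DMSO group, brought it past the threshold. DESeq2-type size factors, the authors' factors, limma and only the groups compared did so too. DESeq2, library totals, no filter and a replicate block did not. ZFAS1, an RNA antisense to the 5′ end of ZNFX1 that holds the SNORD12 family, rose by 0.23 ± 0.08 in knockout (adjusted p = 0.0265). The ZFAS1 call was lost without any 1 of the knockout DMSO libraries or without knockout JQ1 replicate 1 or 2 (adjusted p up to 0.094). DANCR, the host of SNORA26 first described as a brake on differentiation, rose by 0.33 ± 0.12 in knockout (adjusted p = 0.0435). In 2 of the 12 fits with a library left out, those without knockout JQ1 replicate 3 or knockout DMSO replicate 3, DANCR kept its call (adjusted p up to 0.206 in the others). In wild type the values were 0.12 ± 0.07 (SE; adjusted p = 0.263) for ZFAS1 and 0.16 ± 0.12 (SE; adjusted p = 0.339) for DANCR.

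The hosts not called in either genotype were SNHG3, SNHG4, SNHG5, SNHG10, SNHG12, SNHG14, SNHG15, SNHG16, SNHG17, SNHG19, SNHG21 and SNHG25, and the same held for TUG1. SNHG3, which lies inside RCC1 on the same strand and holds both copies of the U17 snoRNA (SNORA73A and SNORA73B), ranged from 39.9 to 55.1 CPM over the 12 libraries. Its 95% interval for the log2 fold change was -0.20 to 0.18 in wild type and -0.25 to 0.13 in knockout. SNHG16 ranged from 73.5 to 86.9 CPM, with intervals of -0.20 to 0.13 and -0.19 to 0.14. SNHG15 ranged from 20.8 to 23.3 CPM, with intervals of -0.21 to 0.10 and -0.20 to 0.12. SNHG21, at 0.275 to 1.45 CPM, had the most negative estimates of all 27 genes, -1.07 ± 0.48 (SE; adjusted p = 0.106) in wild type and -1.33 ± 0.51 (SE; adjusted p = 0.0548) in knockout. It passed the threshold in both genotypes without wild-type DMSO replicate 3, and in knockout also without wild-type DMSO replicate 2. SNHG21 also passed it with no filter in both genotypes, and in knockout with library totals, the authors' factors and only the groups compared. SNHG5 passed it in knockout with the authors' factors and limma. With library totals SNHG15 passed in wild type, SNHG25 in knockout and SNHG19 in both genotypes. SNHG10 had -0.36 ± 0.18 (SE; adjusted p = 0.156) in knockout and SNHG14 had 0.12 ± 0.05 (SE; adjusted p = 0.058) in wild type, and each passed the threshold without knockout JQ1 replicate 3. SNHG14 also passed it in wild type with DESeq2-type size factors, DESeq2, the authors' factors, limma and only the groups compared. It did not with library totals, no filter or a replicate block. In knockout SNHG14 had 0.10 ± 0.04 (adjusted p = 0.0887) and passed with DESeq2, the authors' factors and limma.

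Of the 4 RNAs without snoRNAs, NEAT1, MALAT1 and NORAD rose with JQ1 and TUG1 was not called. NEAT1 (chr11:65422774-65445540, plus strand, a long intergenic RNA gene of GENCODE v29) was higher in each treated library than in any DMSO library. NEAT1 stood at 282, 275 and 269 CPM in wild-type DMSO and 658, 709.6 and 638 CPM in wild-type JQ1. In knockout cells NEAT1 stood at 243, 240.1 and 224 CPM in DMSO and 430.3, 449.8 and 500.1 CPM with JQ1. The rise was 2.43-fold in wild type and 1.95-fold in knockout. On the log2 scale these were 1.28 ± 0.06 (SE; adjusted p = 2.61e-09) and 0.97 ± 0.06 (SE; adjusted p = 3.08e-08). MALAT1 (chr11:65497688-65506516, plus strand), the neighbour of NEAT1 on chromosome 11, held between 0.942% and 2.26% of all counts of a library. Its levels were 14595, 14175 and 14271 CPM in wild-type DMSO and 21135, 22438 and 22853 CPM in wild-type JQ1. They were 11879, 9659 and 9141 CPM in knockout DMSO and 17975, 16921 and 15263 CPM in knockout JQ1. Treated and DMSO libraries did not overlap within a genotype, and the log2 fold changes were 0.63 ± 0.08 (SE; adjusted p = 3.12e-05) and 0.71 ± 0.08 (SE; adjusted p = 8.33e-06). Both RNAs kept these calls in all 12 fits with a library left out.

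NORAD (chr20:36045622-36050960, minus strand) is annotated with 1 transcript of 1 exon. NORAD measured 483, 508 and 492 CPM in wild-type DMSO, 572, 605 and 605 CPM in wild-type JQ1, 478, 470.1 and 479.8 CPM in knockout DMSO and 512, 557 and 518 CPM in knockout JQ1. The groups did not overlap within a genotype, yet the changes were small, 0.27 ± 0.05 (SE; adjusted p = 0.000627) and 0.15 ± 0.05 (SE; adjusted p = 0.0231). With library totals in place of TMM the values were 0.14 (adjusted p = 0.0687) and 0.04 (adjusted p = 0.633). The knockout call was also lost without knockout DMSO replicate 1 or 2 or knockout JQ1 replicate 2 (adjusted p up to 0.0929). TUG1 measured 114, 111 and 106 CPM in wild-type DMSO, 108, 109 and 115 CPM in wild-type JQ1, 107, 97.9 and 113 CPM in knockout DMSO and 93.3, 102 and 80.4 CPM in knockout JQ1. Its log2 fold changes were 0.01 ± 0.08 (SE; adjusted p = 0.95) and -0.20 ± 0.08 (SE; adjusted p = 0.0627), the latter past the threshold without knockout DMSO replicate 2 or knockout JQ1 replicate 2. That knockout value also passed with library totals and with no filter.

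**Figure D3:**
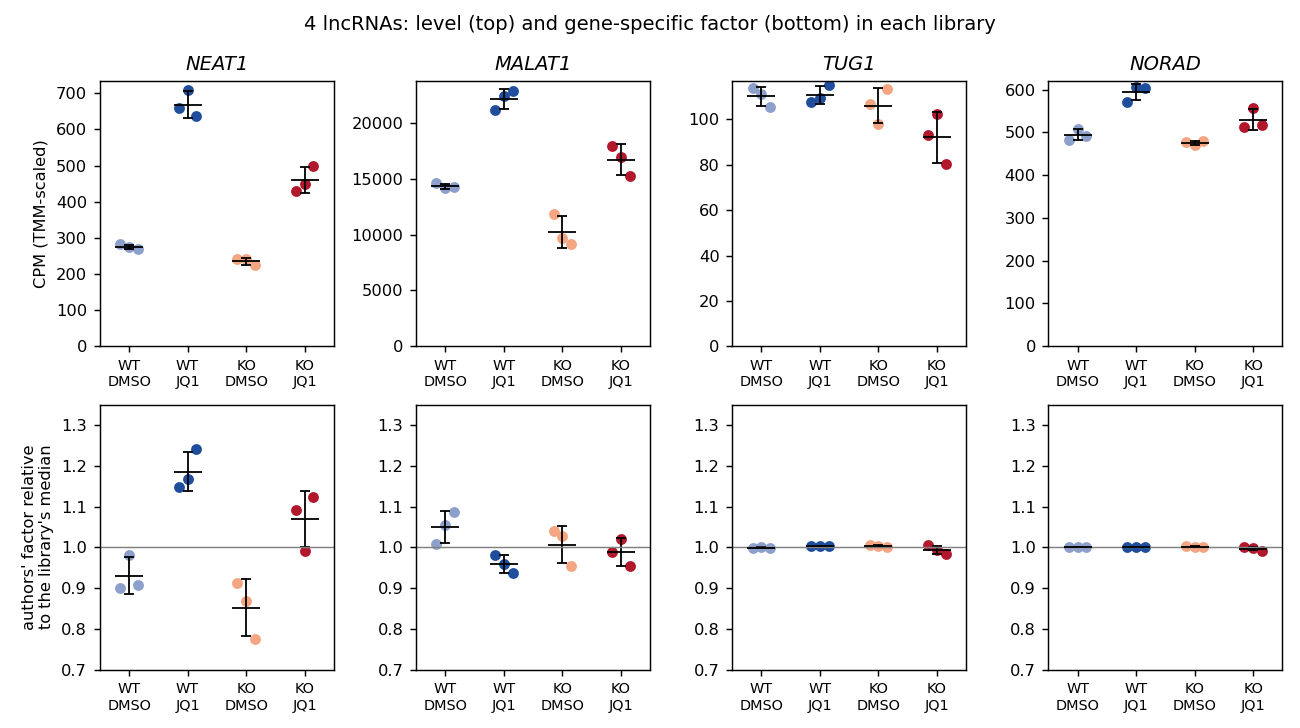
Top row, CPM of NEAT1, MALAT1, TUG1 and NORAD in each library; bottom row, the ratio of that gene's rounded count to the authors' normalized value, relative to the library's median factor (points are libraries, bars the mean and standard deviation of 3). The NEAT1 factor is 0.900 to 0.982 in wild-type DMSO and 1.15 to 1.24 in wild-type JQ1, whereas the NORAD factor stays within 0.992 to 1.00.

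The size of the NEAT1 rise differed between the deposited tables. Dividing each rounded count by the authors' normalized value gave a factor that differed by gene as well as by library. For NEAT1 that factor, relative to the library's median, was 0.900 to 0.982 in wild-type DMSO, 1.15 to 1.24 in wild-type JQ1, 0.776 to 0.912 in knockout DMSO and 0.992 to 1.12 in knockout JQ1. The DMSO and JQ1 ranges did not overlap. With these factors in the edgeR fit the log2 fold change was 0.95 in wild type and 0.64 in knockout, still past the threshold (adjusted p = 2.56e-07 and 9.86e-06). GENCODE v29 lists 8 NEAT1 transcripts of 512 to 22743 bases, whereas NORAD has 1 and a factor that hardly varied. TUG1, with 20 transcripts, and SNHG20, with 18, also had factors that varied little (log2 range across libraries 0.0292 and 0.0195). The factor's log2 range was also taken over tested genes with 1 annotated locus and a factor in every library. Its median was 0.0161 for the 5630 genes with 1 annotated transcript and 0.0690 for the 14823 genes with more. Between JQ1 and DMSO the factor moved by over 0.1 on the log2 scale in 7 of the 27 genes in wild type (8.84% of tested genes) and in 3 of 27 in knockout (8.65%). The shift was 0.42 for SNHG7 in wild type and 0.04 in knockout. What the factor stands for is not given in the sources used here.

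Knockout and wild-type cells differed at fewer of these genes. In DMSO 1 gene was higher in knockout (SNHG14) and 3 were lower (MALAT1, NEAT1 and SNHG7), 4 of 27, beside 7.92% of all tested genes called (3.47% higher and 4.44% lower). Under JQ1 4 were higher (SNHG14, SNHG6, SNHG5 and GAS5) and 3 lower (NEAT1, MALAT1 and NORAD), 7 of 27, beside 8.57% of all tested genes (3.01% higher and 5.56% lower). The median over the 23 hosts was 0.04 in DMSO and 0.08 under JQ1, against 0.00 over all tested genes in both. In DMSO that host median turned to -0.02 without knockout DMSO replicate 3 and to -0.01 with library totals. Under JQ1 it was 0.00 without knockout JQ1 replicate 3 and 0.03 without wild-type JQ1 replicate 2. SNHG14, MALAT1 and, under JQ1, NEAT1 kept their calls in all 12 fits with a library left out, and the other calls did not.

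SNHG14 (chr15:24978583-25419462, plus strand) is a very long imprinted transcript of the Prader-Willi and Angelman region. It continues from SNRPN, carries the SNORD116 and SNORD115 snoRNA clusters, and runs antisense to UBE3A. SNHG14 measured 181, 177 and 177 CPM in wild-type DMSO and 195, 197 and 189.6 CPM in wild-type JQ1. The knockout libraries had 261, 254 and 257 CPM in DMSO and 272, 285 and 273 CPM with JQ1. All 6 knockout libraries were above all 6 wild-type libraries, with log2 fold changes of 0.53 ± 0.05 (SE; adjusted p = 2.98e-06) in DMSO and 0.51 ± 0.05 (SE; adjusted p = 3.83e-06) under JQ1, that is 144% and 143% of wild type. Of the 8 tested genes that overlap SNHG14 on its own strand, 2 were higher in knockout in both treatments and 0 were lower. Over all tested genes 3.47% were higher and 4.44% lower in DMSO, and 3.01% and 5.56% under JQ1. SNRPN, which encodes a spliceosomal SmN protein, was higher by 0.61 ± 0.07 in DMSO and 0.69 ± 0.07 under JQ1. The noncoding gene AC124312.3 was higher by 0.70 ± 0.08 and 0.83 ± 0.08. UBE3A, a ubiquitin ligase gene on the opposite strand, had values of -0.15 ± 0.07 (SE; adjusted p = 0.23) in DMSO and -0.16 ± 0.07 (SE; adjusted p = 0.166) under JQ1. Reads could be shared between SNHG14 and the genes on its strand, and that was not tested.

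**Figure D4:**
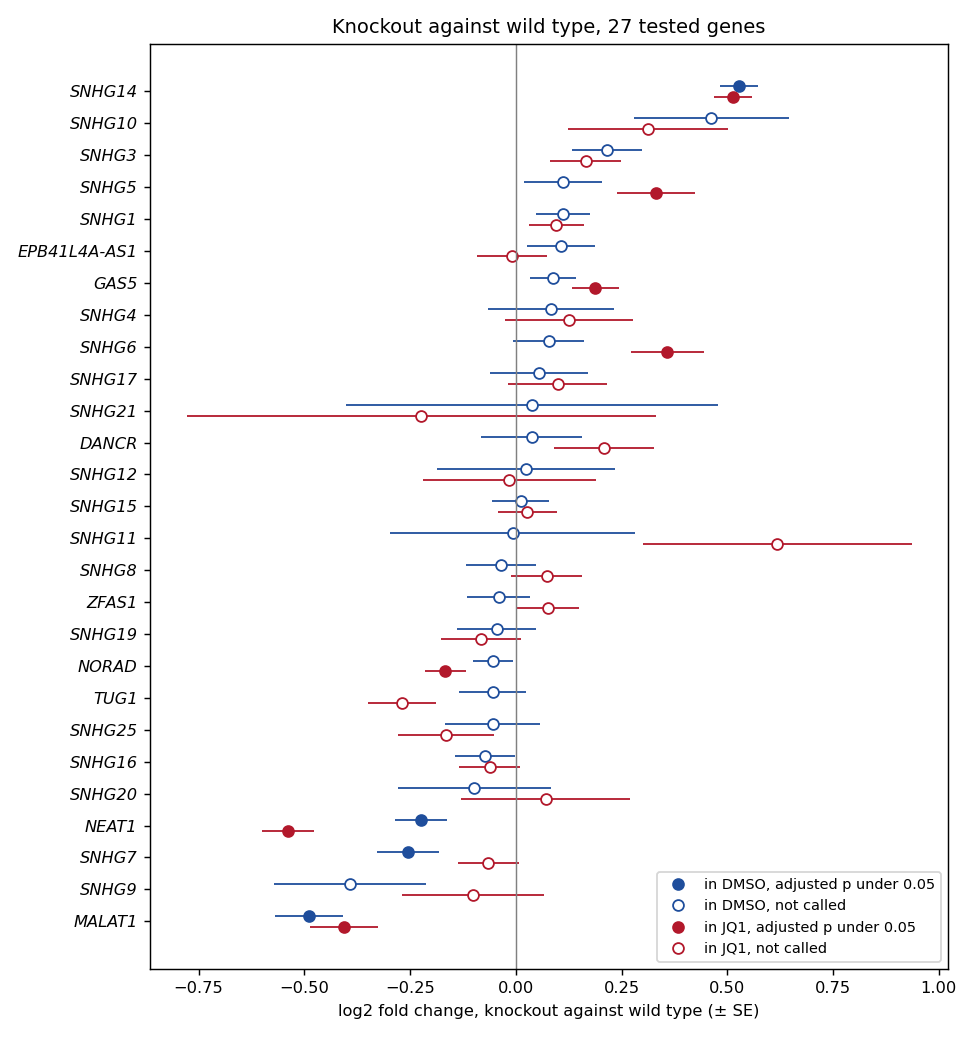
Log2 fold change of knockout against wild type for the 27 tested genes, ordered by the value in DMSO, with bars for the standard error; blue is DMSO, red is JQ1, and filled points passed an adjusted p of 0.05. SNHG14 is highest in DMSO at 0.53 and 0.51 under JQ1, and MALAT1 is lowest in DMSO at -0.49.

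MALAT1 was lower in knockout by 0.49 ± 0.08 on the log2 scale in DMSO (adjusted p = 0.00125) and by 0.41 ± 0.08 under JQ1 (adjusted p = 0.00485). Its 3 knockout libraries lay below the 3 wild-type libraries within each treatment. NEAT1 was lower by 0.22 ± 0.06 in DMSO (adjusted p = 0.0387) and by 0.54 ± 0.06 under JQ1 (adjusted p = 5.06e-05). The DMSO call was lost without any 1 of the 6 DMSO libraries or without wild-type JQ1 replicate 1 (adjusted p up to 0.171), and with the authors' factors, where the value was -0.08 (adjusted p = 0.614). SNHG7 was lower by 0.26 ± 0.07 in DMSO (adjusted p = 0.0464), with 17.4 ± 0.291 CPM in knockout and 20.8 ± 0.680 CPM in wild type (SD, n = 3 each). It was called in 2 of the 12 fits with a library left out, those without knockout JQ1 replicate 1 or 3 (adjusted p up to 0.194 in the others).

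Under JQ1, 2 hosts that had fallen in wild type were higher in knockout. SNHG6 was higher in knockout by 0.36 ± 0.09 (SE; adjusted p = 0.0166), lost without knockout JQ1 replicate 1 or 2 or wild-type JQ1 replicate 1 (adjusted p up to 0.0883). GAS5 was higher by 0.19 ± 0.05 (SE; adjusted p = 0.0467) and was called in 1 of the 12 fits with a library left out, the one without knockout JQ1 replicate 3 (adjusted p 0.0156 to 0.211). SNHG5, the host of the U50 snoRNAs, had 14, 14 and 16.5 CPM in knockout JQ1 and 12.4, 11.6 and 11.4 CPM in wild-type JQ1. Its difference of 0.33 ± 0.09 (SE; adjusted p = 0.0378) was lost without knockout JQ1 replicate 3 or any 1 wild-type JQ1 library (adjusted p up to 0.128). NORAD was lower by 0.17 ± 0.05 (adjusted p = 0.0455), a call kept in 1 of the 12 fits, the one without knockout JQ1 replicate 2 (adjusted p up to 0.163 in the others).

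The response to JQ1 was also compared between the genotypes directly, by the interaction term of the edgeR fit. In edgeR 0 of the 27 genes were called, beside 0.134% of all tested genes (0.0323% higher and 0.101% lower), and 2 had an unadjusted p under 0.05. DESeq2 called 1 of the 27, NEAT1. The NEAT1 rise was smaller in knockout by 0.31 ± 0.09 on the log2 scale (adjusted p = 0.266, 95% interval -0.52 to -0.11). Without knockout JQ1 replicate 3 the value was -0.38 (adjusted p = 0.0336), and in the other 11 fits with a library left out the adjusted p was above the threshold. For GAS5 the interval of the difference was -0.08 to 0.28 and for MALAT1 -0.18 to 0.34.

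Most small RNAs inside these hosts had too few counts to be tested. GENCODE v29 places 134 snoRNA or scaRNA symbols inside 25 of the 31 genes that it locates once, 84 of them inside SNHG14. SNHG28 has 2 loci there and was not searched. The table holds 127 of the 134, of which 34 were tested, 87 had at most 10 counts in every library and 70 had 0. Precursor and mature forms cannot be told apart in these counts. The 34 symbols gave 32 distinct sets of counts, since SNORD116-3 and SNORD116-9, and SNORD116-5 and SNORD116-7, had the same rounded counts in all 12 libraries. In wild type 4 of the 34 were lower with JQ1 and 0 higher, with a median log2 fold change of -0.13, beside 16.2% of all tested genes lower and 16.9% higher. In knockout 3 were higher and 0 lower, with a median of 0.10, beside 16.7% of all tested genes higher and 17.8% lower. For GAS5 no snoRNA is placed inside the gene by that annotation. SNORD78, listed for GAS5 from general knowledge, had log2 fold changes of -0.10 ± 0.22 (SE; adjusted p = 0.758) in wild type and 0.51 ± 0.22 (SE; adjusted p = 0.0907) in knockout.

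Among the hosts called lower with JQ1 in wild type, 2 held a guide RNA that was also called lower. The sequences of these guides and of the lower pair from SNHG17 are shown, as GENCODE v29 gives them on GRCh38, with the ACA near the 3′ end that H/ACA guides share in capitals. SNORA24 lies at chr4:118279190-118279320 (plus strand, in SNHG8), SCARNA16 at chr17:77089307-77089493 (plus strand, in SNHG20), SNORA71A at chr20:38427309-38427442 and SNORA71C at chr20:38429670-38429803 (both minus strand, in SNHG17).
SNORA24: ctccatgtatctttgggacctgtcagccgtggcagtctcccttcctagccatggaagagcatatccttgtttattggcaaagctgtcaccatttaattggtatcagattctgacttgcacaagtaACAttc
SCARNA16: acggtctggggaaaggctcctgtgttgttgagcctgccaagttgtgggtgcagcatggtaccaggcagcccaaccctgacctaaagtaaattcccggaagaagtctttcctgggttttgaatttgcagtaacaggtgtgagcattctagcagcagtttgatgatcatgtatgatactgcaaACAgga
SNORA71A: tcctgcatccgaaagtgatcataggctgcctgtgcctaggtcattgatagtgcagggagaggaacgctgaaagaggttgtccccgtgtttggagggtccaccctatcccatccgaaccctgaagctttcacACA
SNORA71C: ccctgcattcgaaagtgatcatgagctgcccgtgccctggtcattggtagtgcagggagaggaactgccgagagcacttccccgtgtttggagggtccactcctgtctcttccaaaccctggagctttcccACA
SNORA24 measured 1.88, 1.95 and 1.84 CPM in wild-type DMSO and 1.16, 1.45 and 0.740 CPM with JQ1, without overlap. Its log2 fold change of -0.77 ± 0.23 (SE; adjusted p = 0.0166) stood beside -0.59 for SNHG8, and the call was lost without wild-type JQ1 replicate 3 (adjusted p = 0.0751). SCARNA16 measured 6.23, 5.42 and 5.00 CPM in wild-type DMSO and 3.36, 4.60 and 3.25 CPM with JQ1. The SCARNA16 change of -0.58 ± 0.15 (SE; adjusted p = 0.00926) stood beside -0.95 for SNHG20 and held in all 12 fits with a library left out. In knockout the values were -0.28 ± 0.23 (SE; adjusted p = 0.388) for SNORA24 and -0.31 ± 0.15 (SE; adjusted p = 0.14) for SCARNA16. No guide inside SNHG1 was tested. SNORA60 had -0.87 ± 0.33 (SE; adjusted p = 0.052) in wild type, beside -0.89 for its host SNHG11. Opposite signs also occurred in knockout. SNORA13 had 0.15 ± 0.22 (SE; adjusted p = 0.641) beside -0.31 for EPB41L4A-AS1, and SNORA26 had -0.17 ± 0.11 (SE; adjusted p = 0.273) beside 0.33 for DANCR.

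SNHG17 and its guides did not share a call. SNORA71A measured 79.1, 71.7 and 67.4 CPM in wild-type DMSO and 57.8, 57.5 and 52.3 CPM with JQ1, without overlap. SNORA71A fell by 0.38 ± 0.10 (adjusted p = 0.009) and SNORA71C by 0.35 ± 0.12 (adjusted p = 0.0392) in wild type, whereas SNHG17 had -0.04 ± 0.12 (SE; adjusted p = 0.848). The SNORA71C call was lost when any 1 of 6 libraries was left out (adjusted p up to 0.173): replicate 1 or 3 of either wild-type group, and knockout DMSO replicate 2 or 3. SNORA71A and SNORA71C share 113 of 136 aligned positions (83.1%), so some reads may be split between the copies. In knockout, the guides that rose were SNORD99 in SNHG12, SNORD60 in SNHG19 and SNORA17B in SNHG7. SNORD99 rose by 0.79 ± 0.19 (adjusted p = 0.00378), beside 0.30 ± 0.21 (SE; adjusted p = 0.301) for SNHG12. SNORD60 rose by 0.73 ± 0.21 (adjusted p = 0.0128), beside -0.16 ± 0.09 (SE; adjusted p = 0.203) for SNHG19, a call lost without knockout DMSO replicate 1 or without JQ1 replicate 3 (adjusted p up to 0.0567). SNORA17B rose by 0.52 ± 0.15 (adjusted p = 0.0164), near the 0.46 of SNHG7, and the call was lost without replicate 3 of either knockout group (adjusted p up to 0.0802).

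**Figure D5:**
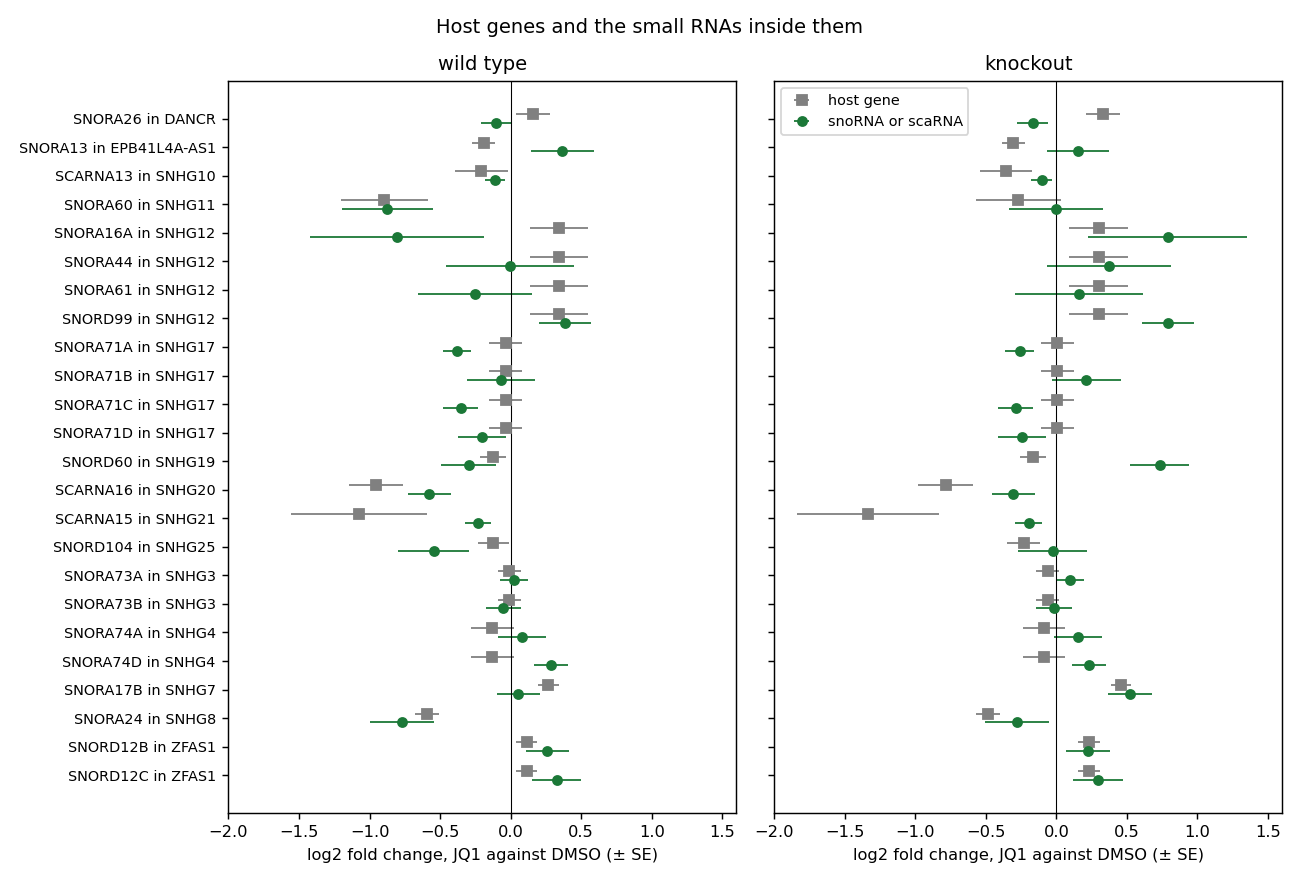
Log2 fold change with JQ1 of the 24 tested small RNAs inside hosts other than SNHG14 (green circles) and of the host of each (grey squares), with bars for the standard error, in wild type (left) and knockout (right). SNORA24 and SCARNA16 lie below 0 beside their hosts in wild type, while SNORA71A lies at -0.38 beside -0.04 for SNHG17.

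In the knockout comparisons SNORD60 was lower in knockout in DMSO, by 0.76 ± 0.20 (adjusted p = 0.0311), with 0.898, 1.20 and 0.878 CPM against 2.03, 1.49 and 1.54 CPM in wild type. That call was lost without replicate 1 or 3 of either DMSO group (adjusted p up to 0.163), and with DESeq2. Inside SNHG14, no SNORD115 copy had enough counts to be tested. There, 10 SNORD116 copies with 8 distinct sets of counts were tested, with at most 138 counts in a library. All 10 had positive estimates in knockout against wild type in both treatments, from 0.17 to 0.93 in DMSO and from 0.24 to 1.53 under JQ1. Positive signs were common among all 34 tested small RNAs, of which 9 were negative in DMSO (median 0.10) and 3 under JQ1 (median 0.33). Of these, SNORD116-3 and SNORD116-9 were called, under JQ1 (adjusted p = 0.0226), and lost the call without knockout JQ1 replicate 2 or replicate 1 or 3 of wild-type JQ1 (adjusted p up to 0.103). With the same counts in all libraries, these 2 copies count as 1 measurement.

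Related genes were read from lists written from general knowledge. Of 32 protein-coding snoRNA hosts, mainly ribosomal protein genes, 5 rose and 10 fell with JQ1 in wild type (median -0.07), and 4 rose and 9 fell in knockout (median -0.03), beside the shares of all tested genes given above. The largest change was that of RPL21, a large-subunit ribosomal protein gene, at -0.71 ± 0.08 (SE; adjusted p = 6.03e-06) in wild type and -0.40 ± 0.08 (SE; adjusted p = 0.000797) in knockout. TPT1, which encodes the translationally controlled tumour protein, had 0.29 ± 0.09 (SE; adjusted p = 0.0204) in wild type and 0.38 ± 0.09 (SE; adjusted p = 0.00328) in knockout, the former lost without DMSO replicate 1 or 2 or JQ1 replicate 2 or 3 of wild type (adjusted p up to 0.072). Between the genotypes, 4 of the 32 were higher in knockout in DMSO and 12 under JQ1, with 0 lower, 28 and 20 not called, and medians of 0.12 and 0.17, beside 3.47% and 3.01% of all tested genes higher. RPL21 was higher by 0.38 ± 0.08 (SE; adjusted p = 0.00539) under JQ1, RPS3 by 0.32 ± 0.06 (SE; adjusted p = 0.00378) and RPS12 by 0.32 ± 0.05 (SE; adjusted p = 0.0013). These 3 led the list and kept their calls in all 12 fits with a library left out. Ribosomal protein genes have many near-identical pseudogenes, so their counts are uncertain.

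Of 18 core and assembly proteins of snoRNA particles, 1 rose and 2 fell with JQ1 in wild type, and 2 rose and 4 fell in knockout, with a median of -0.05 in each. Over all tested genes 16.9% were higher and 16.2% lower in wild type, and 16.7% and 17.8% in knockout. GAR1, an H/ACA core protein, had -0.38 ± 0.09 (SE; adjusted p = 0.00336) and -0.33 ± 0.09 (SE; adjusted p = 0.00841), and COIL, the Cajal body protein coilin, had -0.38 ± 0.07 (SE; adjusted p = 0.0012) and -0.39 ± 0.08 (SE; adjusted p = 0.000999). PIH1D1, part of the assembly complex for box C/D particles, rose by 0.29 ± 0.06 in wild type (adjusted p = 0.00136). In knockout against wild type 2 of 18 were higher in DMSO and 0 lower, beside 3.47% and 4.44% of all tested genes. Under JQ1 0 of 18 passed the threshold, beside 8.57% of all tested genes, and 5 had an unadjusted p under 0.05 in edgeR.

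Of 16 factors of nonsense-mediated decay, 7 rose and 0 fell with JQ1 in each genotype, with medians of 0.10 and 0.08, beside 16.9% of all tested genes higher in wild type and 16.7% in knockout. SMG6, the endonuclease of the pathway, rose by 0.46 ± 0.08 (adjusted p = 0.000295) in wild type and by 0.41 ± 0.08 (adjusted p = 0.000802) in knockout. The exon junction protein gene EIF4A3 rose by 0.35 ± 0.07 and 0.36 ± 0.07. Of 12 transcripts known to be targets of the pathway, 3 rose in wild type and 6 in knockout, and 0 fell, with medians of 0.09 and 0.21, beside the same shares of all genes. GADD45B, a stress-response gene, rose by 1.24 ± 0.12 and 1.23 ± 0.12. SRSF2, a splicing factor gene whose transcript carries a poison exon, rose by 0.43 ± 0.05 in knockout. Members such as GADD45B and ATF3 are also stress-induced genes, and SMG1, SMG5 and UPF2 stand on both lists. In knockout against wild type 4 of the 12 targets were lower in each treatment and 1 (TBL2) was higher in DMSO. Over all tested genes 4.44% were lower in DMSO and 5.56% under JQ1, and 3.47% and 3.01% were higher. ATF4 was lower by 0.35 ± 0.07 in DMSO and 0.44 ± 0.07 under JQ1.

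The last lists held genes for protein partners of NEAT1 and NORAD. Of 9 paraspeckle protein genes, 0 rose and 3 fell with JQ1 in wild type, and 2 rose and 3 fell in knockout, with medians of -0.04 and -0.06, beside 16.2% and 17.8% of all tested genes lower. HNRNPH3 had -0.31 ± 0.09 (SE; adjusted p = 0.0189) in wild type and -0.30 ± 0.09 (SE; adjusted p = 0.0202) in knockout, and TARDBP, the gene of TDP-43, rose by 0.24 ± 0.05 in knockout. The HNRNPH3 calls were lost in wild type without replicate 2 or 3 of either wild-type group, and without knockout DMSO replicate 1 or 2 or knockout JQ1 replicate 3 in knockout. None of the 9 passed the threshold in edgeR between knockout and wild type in either treatment, with 0 at an unadjusted p under 0.05 in DMSO and 1 under JQ1. Over all tested genes 7.92% passed it in DMSO and 8.57% under JQ1. Of 4 NORAD-binding protein genes, 1 fell with JQ1 in wild type and 2 in knockout, and 0 rose. Over all tested genes 16.2% and 17.8% were lower, and 16.9% and 16.7% higher. In knockout against wild type 1 of the 4 was higher in DMSO and 1 was lower under JQ1, beside 3.47% and 5.56% of all tested genes. RBMX, an RNA-binding protein gene, fell with JQ1 by 0.41 ± 0.05 in wild type and 0.57 ± 0.05 in knockout.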

How the data were processed

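Estimated counts per gene symbol in 12 libraries, and a normalized signal for part of the symbols, were deposited by the authors. The ratio of rounded count to signal was taken as the authors' factor. The submitters' processing notes name Trim Galore, cutadapt, FastQC, MultiQC, kallisto, DESeq2 and GRCh38.p10, without their order. The annotation and use of strand are not given in the sources used here. The 32 genes and the gene lists were chosen with earlier results of these data known. Testing was planned on counts, so the estimated counts were rounded. After edgeR's filterByExpr (21698 of 56609 symbols, at least 99.9% of each library's counts) and TMM scaling (factors 0.926 to 1.06), all 12 libraries entered 1 quasi-likelihood fit (edgeR 4.0.16, limma 3.58.1, R 4.3.3) with Benjamini-Hochberg adjustment. No pair of the 66 held identical values. Standard errors are the absolute log2 fold change over the square root of F. Alternatives were DESeq2 1.42.0, limma on log2(signal + 1), other scalings, no filter, a stricter threshold, only the groups compared and each library left out. The script was tested on simulated data. Every tested gene of the 32 could be named, and from each list up to 3 called genes per comparison. Coordinates and genes inside hosts came from GENCODE v29, promoter windows from RefSeq. The motifs GGGCGG and CCAAT, the placement by coordinates and the overlapping genes were chosen after seeing the data.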

Additional observations from a re-analysis of the deposited data

How the results depend on the processing

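The counts of called genes for JQ1 stayed within 1.5 times the reported 10 (wild type) and 12 (knockout) under the alternatives run. Leaving out 1 library gave 8 to 12 in wild type and 8 to 13 in knockout. Knockout against wild type was less stable: the 4 genes called in DMSO became 2 with an adjusted p of 0.01, and 2 to 6 with a library left out. The 2 were reached without any knockout DMSO or wild-type DMSO library or wild-type JQ1 replicate 1, and the 6 without knockout JQ1 replicate 3. The 7 called under JQ1 became 3 with only the groups compared in the fit, 3 with an adjusted p of 0.01, and 3 to 6 with a library left out (3 without wild-type JQ1 replicate 1, and 4 without knockout JQ1 replicate 1 or wild-type JQ1 replicate 2 or 3). The interaction, with 0 called, had 1 with DESeq2 and 0 to 1 with a library left out. A fit of only the groups compared was not run for the interaction, since it uses all 4.

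The replicate numbers were tried as a block. Same-numbered libraries of different groups had deviations correlated between -0.538 and 0.517 (18 pairs), different-numbered ones between -0.591 and 0.455 (36 pairs). These ranges overlap, and they cannot show whether same-numbered libraries shared a culture or a batch. The replicate block gave 10 and 11 called genes for JQ1 in wild type and knockout, 2 and 4 for knockout against wild type in DMSO and JQ1, and 0 for the interaction.

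SNHG7 with JQ1 in wild type reversed, to -0.13 with the authors' gene-specific factors and -0.14 with limma on the authors' normalized signal. The factor itself rose in those libraries. Library totals in place of TMM lowered the median JQ1 fold change, and NORAD was then not called in either genotype. With the authors' factors SNHG11 in wild type and DANCR in knockout lost their JQ1 calls, as did NEAT1 in DMSO and GAS5 and NORAD under JQ1 between the genotypes. Over single genes, 7250 of 7797 recomputed values kept direction and side of the threshold, 393 lost and 152 gained a call, and 2 reversed. SNHG21, SNHG11 and most embedded small RNAs had few counts, and the cause was not tested.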
